A study of Homo sapiens with 6 samples.

Results

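The genes studied here are 10 that handle iron and heme: HMOX1, HMOX2, BLVRA, BLVRB, FTH1, FTL, TFRC, SLC11A2, SLC40A1 and IREB2. They were chosen by function, with earlier results of these data known. They are the rows of the deposited table whose Ensembl identifiers belong to these symbols, 10 of its 60668 genes. RNA was sequenced from MiaPaCa-2, an established human pancreatic ductal adenocarcinoma (PDAC) cell line, after 48 h in low glucose (2.5 mM, 3 libraries, av7, av8 and av9) or in control medium (25 mM, 3 libraries, av1, av2 and av3). The cells were otherwise untreated in both conditions, and the comparison asks which transcripts differ when glucose is limited. The labels name av7 and av8 as low glucose, and the other 4 libraries were assigned because the column names form 2 runs of 3. One protocol field states 2.5 mM even for the control samples, whereas titles and design text set the controls apart.

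Heme is opened by heme oxygenases, which release its iron together with carbon monoxide and biliverdin, and biliverdin reductases then make bilirubin. Cells take up transferrin-bound iron through the transferrin receptor, keep what is not in use inside ferritin shells, and release it through ferroportin. Iron regulatory proteins bind a hairpin called the iron-responsive element (IRE) when iron is scarce: at the start of the ferritin and ferroportin transcripts this blocks translation, and in the tail of the transferrin receptor transcript it slows decay.

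Because this hairpin is the sequence that links ferritin, ferroportin and the transferrin receptor, its matches in these genes are shown first. The MANE Select transcripts of Gencode v44 (hg38) were searched on the transcript strand for a 6-base loop CAGTGN closed by 5 base pairs, G with T allowed, and preceded by an unpaired C. Each match is printed 5′ to 3′ with 6 bases on either side of that core, 29 bases in all, and capitals mark the loop. The names give the gene and, for TFRC, the order along the transcript.
FTH1: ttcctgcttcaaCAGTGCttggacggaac
FTL: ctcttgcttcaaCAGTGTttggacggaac
SLC40A1: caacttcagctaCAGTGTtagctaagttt
TFRC match 1: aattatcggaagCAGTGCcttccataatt
TFRC match 2: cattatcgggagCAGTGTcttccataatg
TFRC match 3: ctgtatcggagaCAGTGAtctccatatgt
TFRC match 4: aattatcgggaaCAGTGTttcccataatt

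The FTH1 match lies in the 5′ UTR, in exon 1, at chr11:61967574-61967602 (minus strand). That of FTL is at chr19:48965335-48965363 (plus strand), and that of SLC40A1 at chr2:189580661-189580689 (minus strand), each in the 5′ UTR and exon 1. The TFRC matches lie in the 3′ UTR, in exon 19, on the minus strand, at chr3:196050979-196051007, chr3:196050575-196050603, chr3:196050510-196050538 and chr3:196050463-196050491. The ferritin pair shared 26 of 29 bases, and the TFRC matches shared 18 to 25 of 29 with each other. Among all 19061 transcripts searched, 256 held a match (1.34%), 19 held it in the 5′ UTR (0.0997%) and 4 held 2 or more (0.021%). The other 6 genes held none, which says only that these letters are not in the transcript searched.

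Between 9741183 and 10190154 reads fell on genes in the control libraries, and between 10595408 and 13733477 in those from low glucose. Every value in the table was a whole number of reads, within 0.01 of a read, divided by 1 size factor per library, and is called a normalized count below. Changes are given as log2 fold changes of normalized count + 1, low glucose against control, from limma, with p-values adjusted by Benjamini-Hochberg over the 21101 genes tested and a threshold of 0.05. The epithelial keratins KRT8 (39759 to 46963 in control, 20549 to 21782 in low glucose) and KRT18 (20614 to 25718, 13149 to 13994) were abundant but lower in low glucose, EPCAM and CDH1 had at most 3 reads in a library, and the blood cell markers PTPRC and HBB had 0. The part of these differences in the values below was not tested. In bulk RNA a lower value can come from fewer cells of a type or from less RNA per cell, and these cannot be told apart.

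Of the 10 genes, 5 rose in low glucose (HMOX1, BLVRA, BLVRB, FTH1 and FTL), 2 fell (TFRC and IREB2), and HMOX2, SLC11A2 and SLC40A1 did not pass the threshold. These 7 calls stand beside a share called of 30.9% over all genes tested, made up of 14.7% higher and 16.2% lower. Most of the 10 genes are abundant, and among all genes whose mean reached 100 the share called was 48%. In 8 of the 10 the conditions did not overlap, against 43.9% of all genes tested. The latter share takes in genes with few reads and was not taken for abundant genes alone. The median log2 fold change was 0.58 over 9 genes (SLC40A1 left out for its few reads), and 0.05 over all genes tested. Among all calls 47.7% were higher under the deposited scaling, 59.8% under scaling by library size and 63.9% when mitochondrially encoded genes were left out before scaling. The direction of those 9 genes was the same under each of the scalings tried.

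**Figure D1:**
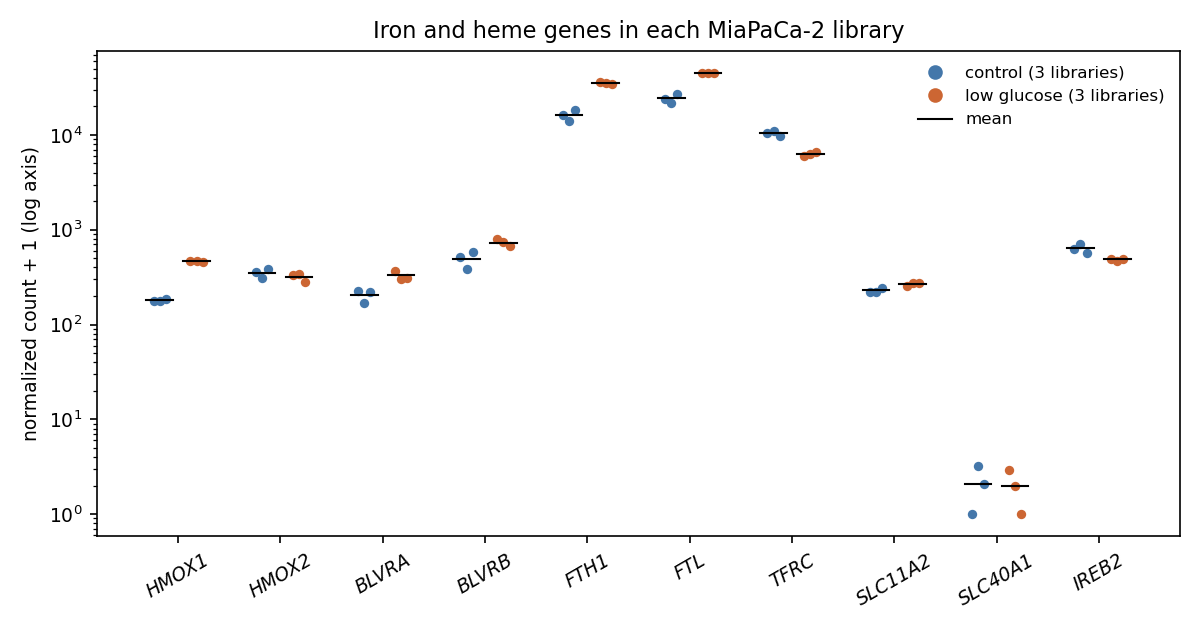
Normalized count plus 1 (log axis) of each of the 10 genes in the 3 control (blue) and 3 low-glucose (orange) libraries, with a line at the mean of each condition. HMOX1, FTH1 and FTL stand apart upward in low glucose and TFRC downward, whereas the points of HMOX2 overlap and SLC40A1 lies near 0.

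HMOX1, the inducible heme oxygenase (ENSG00000100292, chr22:35380361-35394214, plus strand), showed the largest rise of the 10 genes. Its normalized count was 178, 177 and 185 in av1, av2 and av3, and 468, 464 and 453 in av7, av8 and av9. The conditions were well apart, and within each of them the libraries lay within a few percent. The mean went from 180 ± 4.28 to 462 ± 7.94 (SD, n = 3 each), a log2 fold change of 1.35 (SE 0.0947, limma adjusted p = 2.21e-07), or 2.56-fold. Among all genes tested, 1032 (4.89%) had a larger fold change upward.

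HMOX2, the constitutive heme oxygenase (ENSG00000103415, chr16:4474690-4510347, plus strand), did not pass the threshold. It had a normalized count of 360, 312 and 386 in control and 329, 337 and 282 in low glucose. Both control av2 and low-glucose av9 were low within their condition, and the conditions overlapped. The log2 fold change was −0.16 (SE 0.11, limma adjusted p = 0.309), with a 95% interval of −0.39 to 0.08. Because NMRAL1 on the other strand shares 103 exonic bases with HMOX2, some reads may belong to either gene.

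The ratio of HMOX1 to HMOX2 within a library, taken like all ratios below with 1 added to each normalized count, is almost free of how libraries are scaled. It was 0.497, 0.569 and 0.481 in control and 1.42, 1.38 and 1.61 in low glucose. HMOX1 therefore had fewer normalized counts than HMOX2 in every control library and more in every low-glucose library. The log2 ratio differed by 1.51 between conditions. In a two-sided exact permutation test, p was 0.1, the smallest that 3 against 3 libraries can give (0.2 after adjustment over the 6 ratios tested).

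The biliverdin reductases, which act after heme oxygenase, rose too. For BLVRA, biliverdin reductase A (ENSG00000106605, chr7:43758680-43807342, plus strand), the normalized count was 228, 168 and 221 in control and 370, 304 and 311 in low glucose. Every low-glucose library lay above every control library, with av2 the lowest of the 6. The mean went from 206 ± 32.6 to 328 ± 36.4 (SD, n = 3 each), a log2 fold change of 0.68 (SE 0.13, limma adjusted p = 0.00118).

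BLVRB, biliverdin reductase B (ENSG00000090013, chr19:40447765-40465764, minus strand), also reduces flavins. Its normalized count was 520, 385 and 582 in control and 793, 738 and 667 in low glucose. The conditions did not overlap, although the highest control library was 1.51 times the lowest. The mean went from 496 ± 101 to 732 ± 63.1 (SD, n = 3 each), a log2 fold change of 0.58 (SE 0.128, limma adjusted p = 0.00322). With no trend of variance with expression in limma, the adjusted p of BLVRB was 0.0803, and over all alternatives it ranged from 0.000114 to 0.0803.

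The 2 reductases were compared within libraries. Their ratio was 0.439, 0.439 and 0.382 in control and 0.468, 0.413 and 0.467 in low glucose. The conditions overlapped, and the difference in log2 ratio was 0.10 (exact permutation p = 0.3, adjusted 0.45).

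**Figure D2:**
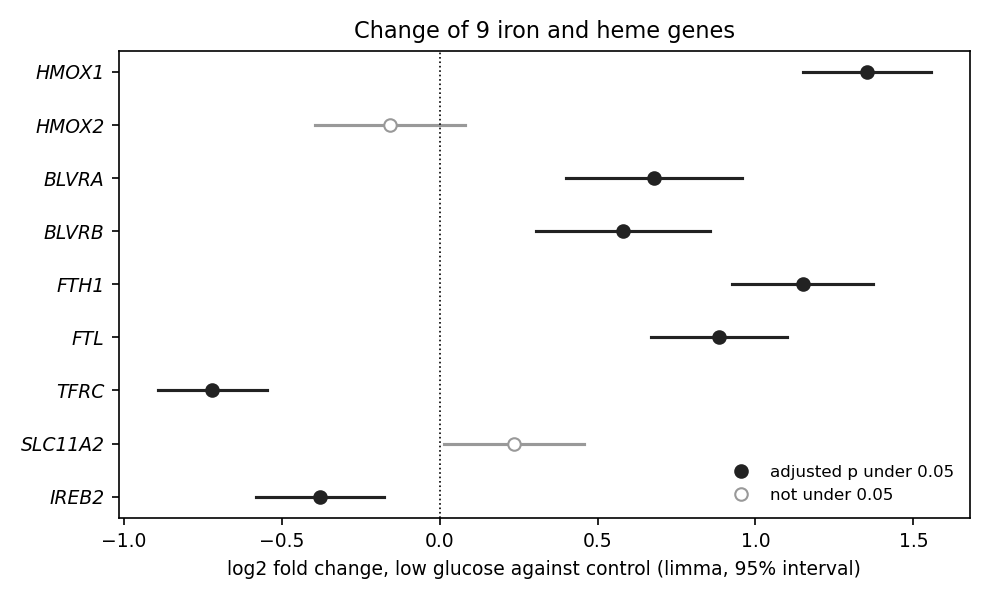
Log2 fold change of low glucose against control with its 95% interval from limma, for the 9 genes with more than 3 reads in a library; filled points passed an adjusted p of 0.05 and open points did not. HMOX1 (1.35) and FTH1 (1.15) lie farthest to the right, TFRC (−0.72) farthest to the left, and the interval of HMOX2 spans 0.

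Ferritin, the iron store, is built from a heavy chain, which oxidizes iron on entry, and a light chain, which helps the mineral core to form. FTH1, the heavy chain (ENSG00000167996, chr11:61959718-61967634, minus strand), had a normalized count of 16092, 13871 and 18469 in control and of 36286, 35593 and 34839 in low glucose. The lowest low-glucose library was far above the highest control library. The mean went from 16144 ± 2299 to 35573 ± 724 (SD, n = 3 each), a log2 fold change of 1.15 (SE 0.105, limma adjusted p = 2.20e-06), or 2.22-fold. Of all genes tested, 7.6% had a larger fold change upward.

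A gene on the other strand limits the FTH1 value. BEST1, which encodes a chloride channel of the retinal pigment epithelium, shares 1267 of the 2004 exonic bases of FTH1, and its normalized count was 80.4% to 81.8% of that of FTH1 in control and 83.7% to 88.6% in low glucose. The library kit keeps the strand, but whether strand was used in counting is not given in the sources used here. Reads of FTH1 and BEST1 therefore cannot be told apart in the table. BEST1 itself had a log2 fold change of 1.23 (SE 0.105, limma adjusted p = 1.19e-06), and the sum of both genes one of 1.19. The pseudogenes of FTH1, of which 14 of 25 had a read, held 0.112% to 0.191% of the summed value.

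FTL, the light chain (ENSG00000087086, chr19:48965309-48966879, plus strand), had the highest normalized count of the 10 genes, with FTH1 taken without BEST1. It was 24065, 21950 and 27218 in control and 45233, 44593 and 44870 in low glucose. The low-glucose libraries lay almost on top of each other, and all were above the controls. The average went from 24411 ± 2651 to 44899 ± 321 (SD, n = 3 each), a log2 fold change of 0.88 (SE 0.1, limma adjusted p = 1.45e-05), or 1.85-fold.

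The 2 ferritin chains were also compared within libraries. The ratio of FTH1 to FTL was 0.669, 0.632 and 0.679 in control and 0.802, 0.798 and 0.776 in low glucose. The conditions did not overlap, and the log2 ratio differed by 0.26 (exact permutation p = 0.1, the smallest possible, adjusted 0.2). With BEST1 added to FTH1 the difference was 0.30, and the order turned, with FTH1 above FTL in every library.

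TFRC, the transferrin receptor and the main door for iron into dividing cells (ENSG00000072274, chr3:196012511-196082153, minus strand), moved opposite to ferritin. Its normalized count was 10561, 11013 and 9646 in control and 6058, 6244 and 6647 in low glucose. All 3 low-glucose libraries were below the controls by more than the spread within a condition. On average TFRC went from 10407 ± 696 to 6316 ± 301 (SD, n = 3 each), a log2 fold change of −0.72 (SE 0.0811, limma adjusted p = 1.42e-05), or 0.607 of control. Of all genes tested, 6.6% fell by more. The long noncoding RNA on its other strand had at most 2 reads in a library.

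TFRC and FTH1 carry the hairpin at opposite ends, and their transcripts changed in opposite directions. Whether the hairpin has a part in these changes was not tested. The ratio of TFRC to FTH1 was 0.656, 0.794 and 0.522 in control and 0.167, 0.175 and 0.191 in low glucose. Even the lowest control library was above every low-glucose library. In low glucose the ratio was 0.274 of that in control, a difference of −1.87 in log2 (exact permutation p = 0.1, the smallest possible, adjusted 0.2).

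SLC11A2, the divalent metal transporter that moves iron out of the endosome (ENSG00000110911, chr12:50979401-51028566, minus strand), did not pass the threshold. SLC11A2 had a normalized count of 220, 222 and 244 in control and 256, 275 and 277 in low glucose. The conditions did not overlap, but they lay close together. The log2 fold change was 0.24 (SE 0.103, limma adjusted p = 0.1, unadjusted p = 0.0385), with a 95% interval of 0.01 to 0.46. Scaling by library size gave 0.32 (adjusted p = 0.0331) and leaving out mitochondrially encoded genes 0.34 (adjusted p = 0.0216), and over all alternatives the adjusted p ranged from 0.0216 to 0.245. Relative to the median of all genes the change of SLC11A2 was 0.19 under each of these scalings.

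SLC40A1, which encodes ferroportin, the iron exporter (ENSG00000138449, chr2:189560590-189583758, minus strand), was barely detected. It had 0 to 2 reads in every library of both conditions. No fold change is given at this depth, and a difference was not detectable. The ratios of TFRC and of SLC11A2 to SLC40A1 overlapped between conditions, with log2 differences of −0.65 (exact permutation p = 0.4, adjusted 0.48) and 0.30 (exact permutation p = 0.7, adjusted 0.7).

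IREB2, iron regulatory protein 2, the RNA-binding protein that reads the hairpins above (ENSG00000136381, chr15:78437431-78501453, plus strand), fell. IREB2 had a normalized count of 630, 708 and 562 in control and 489, 472 and 493 in low glucose. All low-glucose libraries lay below the lowest control library, av3. On average IREB2 went from 633 ± 73.1 to 485 ± 11.1 (SD, n = 3 each), a log2 fold change of −0.38 (SE 0.0952, limma adjusted p = 0.00738), or 0.769 of control. With no variance trend in limma the adjusted p of IREB2 was 0.0724, and over all alternatives it ranged from 0.000595 to 0.0724.

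**Figure D3:**
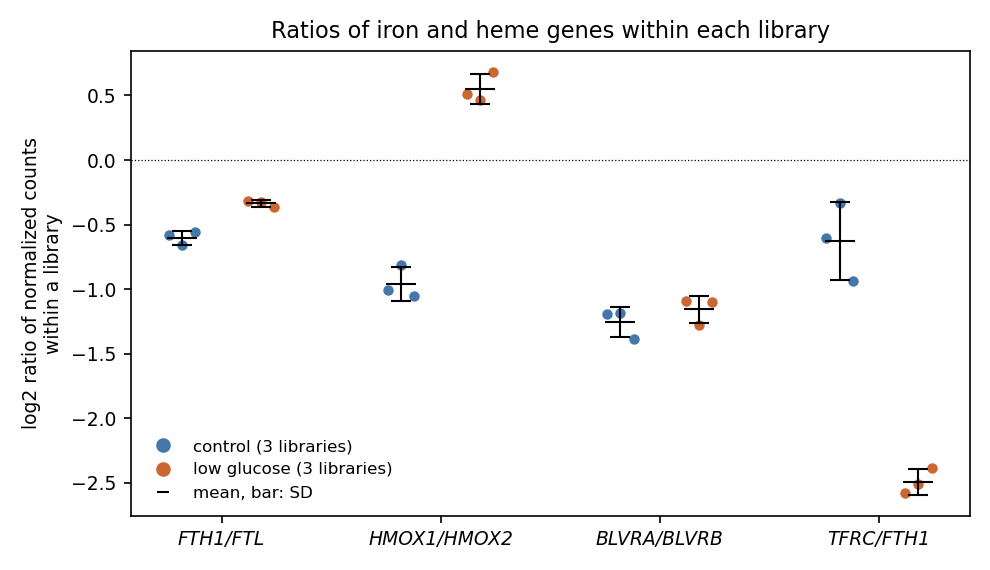
Log2 ratio of normalized counts, each plus 1, within each library for 4 pairs of genes, in 3 control (blue) and 3 low-glucose (orange) libraries, with the mean and SD of each condition. The conditions are apart for FTH1/FTL, HMOX1/HMOX2 and TFRC/FTH1, and they overlap for BLVRA/BLVRB.

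To compare levels between genes, normalized counts were divided by the length of the MANE Select transcript in kb. Ferritin led in both conditions, with FTL at 28026 per kb and FTH1 at 13420 per kb in control, and 51548 and 29570 per kb in low glucose. These FTH1 values leave out BEST1, with which FTH1 would lie above FTL in low glucose but not in control. TFRC came next, at 2076 per kb in control and 1260 per kb in low glucose, followed by BLVRB at 620 and 917 per kb. SLC40A1 was last in both conditions, at 0.33 per kb in control and 0.29 per kb in low glucose. In control, HMOX2 (211 per kb) and BLVRA (192 per kb) overlapped, and HMOX1 (116 per kb), IREB2 (100 per kb) and SLC11A2 (55.3 per kb) followed without overlap. In low glucose, BLVRA (306 per kb) and HMOX1 (297 per kb) overlapped and stood above HMOX2 (189 per kb), IREB2 (76.6 per kb) and SLC11A2 (65.1 per kb). With the length of all annotated exons instead, BLVRB stood above TFRC in low glucose.

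Control libraries differed more among themselves than low-glucose libraries. The coefficient of variation of FTH1 was 14.2% in control and 2.03% in low glucose, that of FTL 10.9% and 0.715%, and that of BLVRB 20.4% and 8.62%. Over the 10149 genes whose mean reached 100, the medians were 9.66% and 5.1%, so controls were wider there too. Among controls, av2 was lowest and av3 highest for FTH1, FTL, BLVRB, HMOX1 and HMOX2, whereas TFRC and IREB2 were lowest in av3 and highest in av2. The calls of all 7 genes were kept when any 1 library was left out.

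The 10 genes act among others, and 71 further genes of iron and heme handling, in 9 lists by role, were examined in the same fit. Of these, 65 were tested, 16 rose and 10 fell, and their median log2 fold change was 0.07 against 0.05 for all genes. The calls are 26 of 65, beside 30.9% of all genes and 48% of those whose mean reached 100, as it did for most of the 65. The same shares stand beside the counts of each list below. When mitochondrially encoded genes were left out before scaling, 21 rose and 8 fell.

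In heme synthesis, 1 of 8 tested genes was higher and none lower (median 0.08). That gene was ALAS1, the rate-limiting enzyme of heme synthesis outside red cells, with a log2 fold change of 0.42 (SE 0.0769, limma adjusted p = 0.0008). Its normalized count was 717, 684 and 707 in control and 977, 929 and 920 in low glucose. In heme transport, 1 of 7 rose and 2 fell (median 0.35). FLVCR1, long known as a heme exporter, fell from 416, 438 and 400 to 266, 240 and 246 (log2 fold change −0.73, limma adjusted p = 5.12e-05). PGRMC1, a heme-binding membrane protein, fell by 0.39 on the log2 scale, and SLC48A1, which moves heme out of lysosomes, rose by 0.48. SLC48A1 shares 30 exonic bases with HDAC7 on the other strand, which held 186% of its value.

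Among other genes of iron uptake, 3 of 8 tested rose and 2 fell (median 0.39). The zinc and iron transporters SLC39A14 and SLC39A8 went in opposite directions. SLC39A14 had a normalized count of 2879, 3228 and 2866 in control and 5476, 5027 and 5029 in low glucose (log2 fold change 0.79, limma adjusted p = 4.38e-06). SLC39A8 had 335, 294 and 316 in control and 124, 125 and 174 in low glucose (log2 fold change −1.17, limma adjusted p = 1.84e-05). STEAP3, the endosomal ferric reductase of the transferrin cycle, rose by 0.86 on the log2 scale (limma adjusted p = 2.56e-05); an antisense RNA at its locus shares 500 exonic bases and held 23% of its value. The other 2 calls, named after their values were seen, were CD44, a receptor that also takes up iron bound to hyaluronan (log2 fold change −0.47), and LCN2, a siderophore-binding protein, with at most 1 read in any control library but 6 to 8 under low glucose.

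In export and its hormone axis, 1 of 5 tested genes rose and 1 fell (median 0.03), and HEPH, a ferroxidase, had no read. HFE, the hemochromatosis protein that binds the transferrin receptor, had a log2 fold change of −0.32 (limma adjusted p = 0.0318, up to 0.143 over the alternatives). TMPRSS6, the protease that restrains hepcidin and named after its values were seen, had 3 reads in each control library and 8 to 17 in each low-glucose library (limma adjusted p = 0.0371, up to 0.157 over the alternatives), and its call was lost when any 1 library was left out. Ferritin loading and turnover had 0 of 3 tested genes called by limma, 0 at an unadjusted p under 0.05, and 0 by edgeR or DESeq2. FTMT, also of that list, had no read in any library. NCOA4, the receptor that carries ferritin to lysosomes, had a log2 fold change of 0.07, and its adjusted p ranged from 0.0258 (quantile normalization) to 0.922 over the alternatives. PCBP1, an iron chaperone for ferritin, had one of −0.11, with adjusted p from 0.0347 (without control library av2) to 0.964. PCBP1 shares 1264 exonic bases with PCBP1-AS1 on the other strand, which held 98.4% of its value. Iron sensing gave the same counts, 0 of 4 by limma, at an unadjusted p under 0.05, and by edgeR or DESeq2. ACO1, the cytosolic aconitase that doubles as iron regulatory protein 1, had a log2 fold change of −0.18 (SE 0.0982, limma adjusted p = 0.197).

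The regulators of HMOX1 transcription had the largest share of calls among the lists, with 5 of 8 higher and 2 lower (median 0.28). ATF4, the transcription factor of the integrated stress response, had a normalized count of 2624, 1932 and 2743 in control and 5051, 5002 and 4784 in low glucose. ATF4 changed by 1.04 on the log2 scale (SE 0.109, limma adjusted p = 7.66e-06). The small MAF proteins, which pair with NRF2 or BACH1 on DNA, were split: MAFF rose by 0.94 (limma adjusted p = 2.01e-05) and MAFG by 0.62 (limma adjusted p = 3.65e-05) on the log2 scale, while MAFK had −0.08 (limma adjusted p = 0.556). MAFF shares 326 exonic bases with PLA2G6 on the other strand, which held 51.4% of its value.

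The other 4 calls in that list, named after their values were seen, were smaller. BACH1, the heme-binding repressor of HMOX1, had a log2 fold change of 0.32 and NFE2L2, which encodes NRF2, of 0.23. KEAP1, which targets NRF2 for degradation, had −0.22, and HIF1A had −0.37. Each of these 4 lost its call under at least 1 alternative, with adjusted p up to 0.139, 0.142, 0.528 and 0.113, respectively. NFE2L2 also shares 3509 exonic bases with HNRNPA3 on the other strand, which held 722.5% of its value.

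In mitochondrial iron handling and iron-sulfur assembly, 1 of 14 tested genes rose and 3 fell (median 0.18). ISCU, the scaffold on which clusters are built, rose from 482, 403 and 519 to 808, 703 and 696 (log2 fold change 0.66, limma adjusted p = 0.000254). ABCB10, a transporter of the inner membrane, fell by 0.60 and GLRX5, a glutaredoxin that passes clusters on, by 0.54 on the log2 scale. NFS1, the sulfur donor enzyme, named after its values were seen, was the other to fall (log2 fold change −0.49). GLRX5 and NFS1 share 301 and 84 exonic bases with SNHG10 and ROMO1 on the other strand, which held 16% and 156% of their values.

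Among other genes known to follow NRF2, the oxidative stress factor that also drives HMOX1 and ferritin, 4 of 8 rose and none fell (median 0.11). SLC7A11, the cystine importer, had a normalized count of 314, 315 and 250 in control and 794, 696 and 682 in low glucose (log2 fold change 1.31, SE 0.108, limma adjusted p = 8.58e-07). GCLC, the catalytic subunit of glutathione synthesis, had 339, 314 and 351 in control and 646, 549 and 586 in low glucose (log2 fold change 0.82, limma adjusted p = 1.62e-05). ME1 and NQO1 changed less, by 0.31 and 0.22, and their adjusted p reached 0.0839 and 0.135 under the alternatives. GCLM, the partner of GCLC, had a log2 fold change of 0.00, and TXNRD1, thioredoxin reductase, of −0.03.

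**Figure D4:**
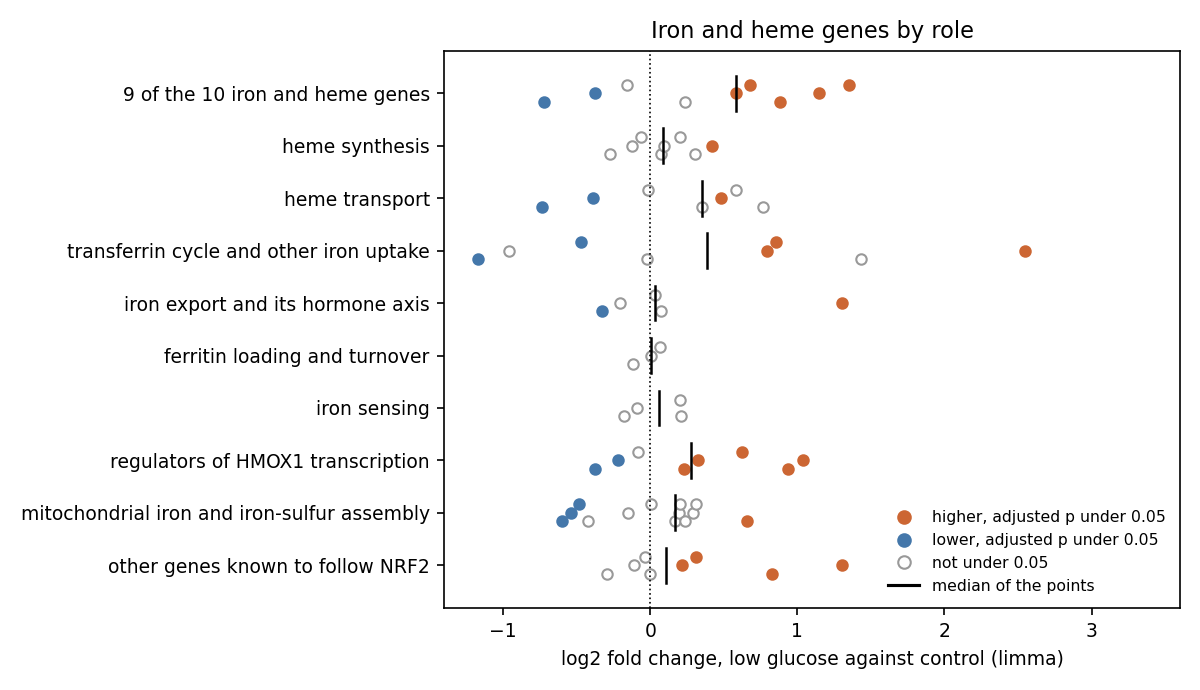
Log2 fold change (limma) of low glucose against control for 9 of the 10 genes and, by role, for the tested genes of 9 further lists; each point is a gene with more than 3 reads in a library, filled where the adjusted p was under 0.05, and the line is the median of the points shown. The rises of HMOX1, FTH1, SLC7A11 and ATF4 lie beyond 1, as do those of LCN2, TMPRSS6 and TF (open), which have few reads. The lists of ferritin loading and iron sensing hold open points only, and IREB2 is shown among the 9 genes.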

How the data were processed

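RNA-seq of 6 MiaPaCa-2 libraries was used, which the design text calls 3 independent biological replicates per condition. According to the labels and methods, the authors prepared strand-specific libraries and mapped reads to hg38 with STAR (2.7.0e). RSEM is among the software the paper lists, with no role stated; the strand setting of the counting and the annotation are not given in the sources used here. The values deposited by the authors are a count-scaled signal: each gene's reads divided by 1 size factor per library. Whole reads were recovered for 100% of values (tolerance 0.01).

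Because the values are normalized, log2(value + 1) was tested for 21101 genes whose mean reached 1, with limma 3.58.1 in R 4.3.3 (eBayes with trend, two-sided, Benjamini-Hochberg). The test was first run on simulated data. Ratios were compared with exact permutation tests. The alternatives were other scalings, filters and pseudocounts, no variance trend, edgeR 4.0.16 and DESeq2 1.42.0 on recovered reads, pseudogene values added, and each library left out. The addition of BEST1 to FTH1 and the length of all exons were chosen after seeing the data. Members, lists and tests were chosen with earlier results of these data known. From each list, the text names up to 3 genes called with a mean of at least 10 and the largest change, those with no read, and others where it says so or gives their role. Positions and 99.4% of gene identifiers come from Gencode v44.

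In no pair of replicates was the difference within sampling noise (chi-square per gene 4.63 to 18.9 among controls, 1.90 to 2.89 among low-glucose libraries). With 3 libraries per condition an exact permutation test cannot go below 0.1.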

Additional observations from a re-analysis of the deposited data

How the results depend on the processing

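The 9 log2 fold changes of genes with more than 3 reads kept their direction in all 156 values under the alternatives, and 152 kept their side of the threshold. When a 2-fold change in either direction (log2 of 1) was also required, 2 of the 10 genes (HMOX1 and FTH1) and 5 of the further pathway genes were called, as that rule asks for more. With no variance trend 5 of the 10 were called, since BLVRB and IREB2 were lost, and under library size scaling or without mitochondrially encoded genes 8, with SLC11A2; the cause was not tested. Under edgeR and DESeq2 7 were called. Leaving out 1 library gave 7 to 7 of the 10 genes and 19 to 30 of the pathway genes. The log2 differences ranged over left-out libraries from 0.23 to 0.29 for FTH1/FTL, from 1.45 to 1.58 for HMOX1/HMOX2, from 0.03 to 0.16 for BLVRA/BLVRB and from −2.02 to −1.72 for TFRC/FTH1. For the 2 ratios to SLC40A1, which rest on at most 2 reads, they ranged from −1.11 to −0.18 for TFRC and from −0.14 to 0.73 for SLC11A2, where leaving out av2 (−0.11) or av9 (−0.14) turned the direction. No paired analysis was possible because replicate numbers are missing for 4 of 6 libraries. Depth limits SLC40A1 and the pathway genes with few reads.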
